A study of Mus musculus with 8 samples.

Results

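The genes described here encode the proteins of the cytosolic ribosome. They were chosen by symbol: every gene named Rpl or Rps with a number and at most a short suffix, together with Rplp0, Rplp1, Rplp2 and Rpsa. The RefSeq gene table lists 79 such genes, of which 2 (Rps3a2 and Rps3a3) are pseudogenes. A probe named through its RefSeq accession was found for 76 of them, all but Rpl37, Rps3a2 and Rps3a3. These 76 genes, 45 of the large subunit and 31 of the small one, had 163 probes and were all among the 15182 genes tested.

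Expression was measured on 8 one-colour arrays of mouse embryonic stem (ES) cells, 4 groups of 2 arrays. The groups were cells labelled ERF knockout given 4-hydroxytamoxifen (OHT), the same cells untreated, ERF wild type cells given OHT, and untreated wild type cells. All 4 groups are H-Ras-/- and N-Ras-/-, with the remaining RAS activity made removable through the RERT ert/ert allele, which expresses a tamoxifen-inducible Cre. OHT, given for at least 2 days, thus leaves cells without RAS. No group given OHT keeps RAS, so OHT itself and the loss of RAS cannot be told apart. Each sample mixed 2 clones, grown on gelatin with 15% serum and 1000 U/ml LIF. Pools A2 and B2 (labelled knockout) and A1 and B1 (wild type) were each taken with OHT and untreated, and replicate 1 is the A pool throughout.

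Each ribosome needs nearly all of these proteins in equal number, and cells make them in step with ribosomal RNA. Their mRNAs are among the most abundant in growing cells and most begin with a run of pyrimidines, the TOP motif, through which mTOR signalling sets their translation, so mRNA level and protein output can part. RAS and ERK signalling feeds ribosome production in part through Myc, which raises transcription of ribosomal genes. ERF is a repressor of the ETS family that ERK phosphorylation keeps out of the nucleus, and its family binds GGAA cores such as the one in CCGGAAG.

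Promoter windows from RefSeq (GRCm38.p6, 250 bases before to 50 bases after the start) were matched for 56 of the 76 genes. CCGGAAG, read on both strands (CTTCCGG), stood in 22 of the 56 (39.3%), against 15.9% of the 12066 tested genes with a window. The stretches printed next come from genes whose array values are described further on; the capitals mark the motif, and each sequence is given on the gene's own strand, 5′ to 3′.
Rplp2, chr7:141447532-141447561, plus strand: gaaatgtcttcCTTCCGGtgcacccttttc
Rpsa, chr9:120127567-120127596, plus strand: cgccccagctaCTTCCGGcctggggtctgt
Rpl6, chr5:121204502-121204531, plus strand: ttgcttatagaCCGGAAGccgctgccttag
Rpl19, chr11:98026660-98026689, plus strand: acttagcgtgaCTTCCGGctacccagagga
Rps7, chr12:28635949-28635978, minus strand: tttcagaagagCTTCCGGtttccacccacc
Rps18, chr17:33955722-33955751, minus strand: agaagcaatttCCGGAAGtggacctccggg
Rps21, chr2:180257342-180257371, plus strand: agtaccctgacCCGGAAGcacttaccgagg

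In the Rps7 window the motif starts 14 bases before the annotated start, in the Rps21 window 26 before, and in Rpl6 it lies 13 bases after it. A run of 6 or more pyrimidines within 10 bases of the start, as a TOP mRNA would carry, was found in 31 of the 56 windows (55.4%), against 29.1% of all those windows. The E-box CACGTG, which Myc binds, stood in 8.93% of these windows and 9.86% of all, the YY1 motif AAGATGGC (or GCCATCTT) in 7.14% and 4.2%, and TATAAA (or TTTATA) in 8.93% and 8.52%. A match is a description of letters, not a bound site.

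All 76 genes were well above background on all 8 arrays, and 0 spots were saturated. Levels are log2 of the processed signal minus the 75th percentile of the array, so 8 is a signal 8 doublings above that percentile. On this scale the mean over arrays ran from 4.75 to 9.28 with a median of 8.40, and 72 genes lay above 7. Probes bind with different strength, so these levels do not rank the genes against each other. The SD of a gene over the 8 arrays had a median of 0.15 and was under 0.2 for 60 genes.

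Between 54.0 and 63.6% of the spots of an array were well above background. Pool B1, both its arrays, was hybridised on slide 2 and all other arrays on slide 1, so that pool and slide 2 cannot be told apart. All 8 ES cell markers were well above background on every array. Their summed level was 299 and 641 after OHT and 327 and 626 untreated in pools A2 and B2. It was 529 and 579 after OHT and 447 and 546 untreated in A1 and B1. Zfp42, which read 5.10 untreated in A2, gave no value there after OHT. The sum of 299 leaves Zfp42 out, so it cannot be compared with the 327 untreated. These sums hide opposite changes of single markers after OHT, seen in the paired limma fit described below. Wild type cells had 2 passing as higher, Nanog (1.35, adjusted p 0.00442) and Zfp42 (0.44, 0.0293). They had 2 passing as lower, Utf1 (-1.50, 2.45e-05) and Tdgf1 (-0.98, 0.000912). Labelled knockout cells had Nanog higher (1.09, 0.0139), with Utf1 (-0.90, 0.000572) and Tdgf1 (-0.57, 0.013) lower. Of 10 fibroblast markers, 8 or 9 were above background, Lum never, and their sums ran from 22.4 to 43.4. On the A2 array with OHT Col1a1 read -2.26, against 3.79 untreated, and the sum of 41.1 there holds this low value. Its change of -2.88 in the labelled knockout became 0.25 with small patches left out. In the paired fit given further on, Prrx1 alone of the fibroblast markers passed, 0.99 higher after OHT in the labelled knockout (limma adjusted p 0.0397). Elf5, a trophoblast marker, was never above background. The trophoblast sums were 8.87 and 2.11 after OHT and 7.79 and 2.12 untreated in A2 and B2, against 4.93 and 3.14 after OHT and 2.97 and 2.01 untreated in A1 and B1, so they were higher with OHT in both wild type pools. Of the 6 trophoblast markers tested, the paired fit given further on passed 1 as higher (Gata3) and 1 as lower (Hand1) after OHT in the labelled knockout, and 3 as higher (Gata2, Gata3 and Krt7) and 1 as lower (Cdx2) in wild type cells, where Gata2 was 2.54 higher (limma adjusted p 0.000184). Primitive endoderm sums ran from 0.904 to 2.18, with Afp never above background. Whether other cells play a part in the results was not tested, and in bulk RNA fewer cells of a type and less RNA per cell cannot be told apart. Erf read 3.92 in A2 and 5.31 in B2 after OHT and 3.45 and 5.65 untreated, against 4.93 to 5.43 in the wild type; B2 read at the wild type level, so the term labelled knockout is used. The place of the Erf probe relative to the knockout is not known from the sources used here.

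With limma on the group means, 0 of the 76 genes passed an adjusted p of 0.05 in any of the 5 comparisons (background: 0% of the 15182 genes in each), and 0 had an unadjusted p under 0.05. Of all genes, 586 had an unadjusted p under 0.05 for OHT in the labelled knockout and 906 in the wild type. What follows for the group means is therefore a description of values and their spread, with limma adjusted p from 0.991 to 1.00 for every gene of the set. Paired fits, given further on, made calls.

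The median level of the 76 genes shows how small the differences between arrays were. It was 8.29 (A2) and 8.46 (B2) after OHT and 8.36 and 8.60 untreated in the labelled knockout, against 8.33 (A1) and 8.25 (B1) after OHT and 8.52 and 8.34 untreated in the wild type. The untreated B2 array was the highest and the B1 array with OHT the lowest. Medians of the large and small subunit genes followed each other, at 8.60 and 8.53 on the untreated B2 array and 8.24 and 8.27 on the B1 array with OHT.

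**Figure D1:**
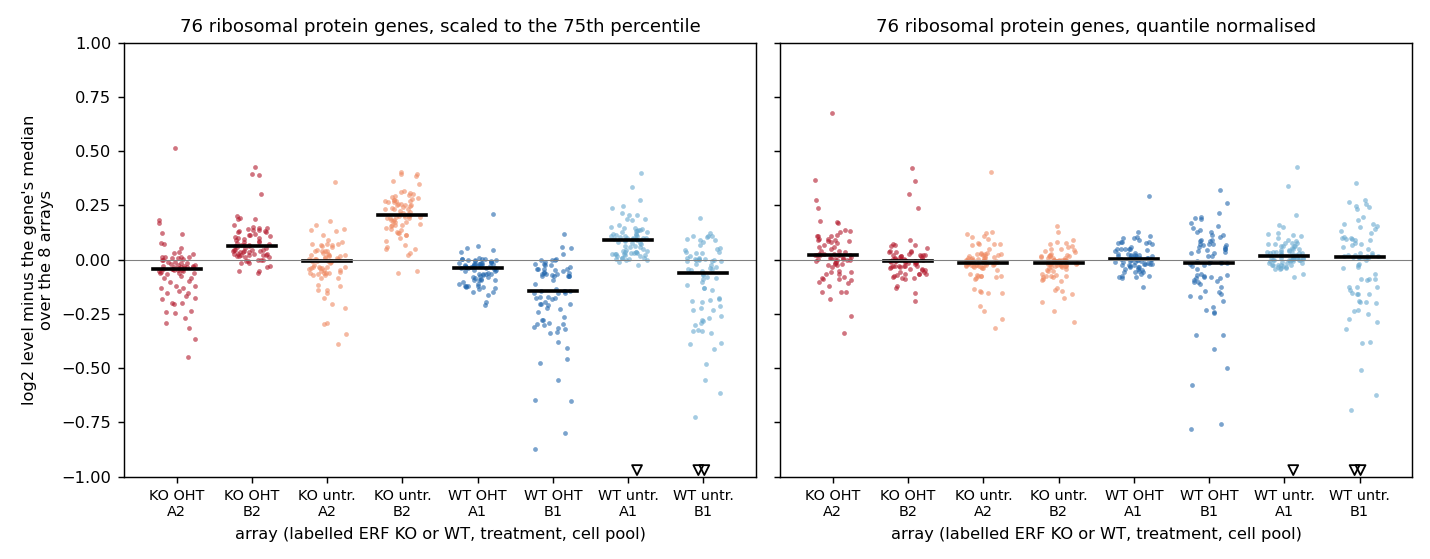
Each point is 1 of the 76 genes on 1 array, as its log2 level minus its own median over the 8 arrays, after scaling to the 75th percentile (left) and after quantile normalisation (right); black bars are medians over genes, and open triangles at the edge mark values past 1. The untreated B2 array stands highest on the left, and on the right the medians of all 8 arrays lie close to 0.

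In the labelled knockout, 67 of the 76 genes were lower after OHT, with a median log2 change of -0.11 against 0.02 for all genes. In the wild type, 70 of the 76 were lower, with a median of -0.10 against -0.05. Within single pools the median was -0.07 in A2 and -0.15 in B2, against -0.15 in A1 and -0.06 in B1. Both pairs were lower for 51 of the 74 genes measured on all 4 arrays of the labelled knockout (68.9%; background 31.8%) and for 54 of 76 in the wild type (71.1%; background 43.5%). Over all genes, both pairs were higher for 35% in the labelled knockout and 31.3% in the wild type. The 2 arrays with OHT lay below both untreated arrays for 19 genes in the labelled knockout (25.7%; background 11.4%) and 29 in the wild type (38.2%; background 23.1%). The SD between replicates of the set's median was 0.13, which holds the differences between pools, while the shift within each of the 4 pools was below 0 at this scaling.

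These directions depended on the scaling between arrays. After quantile normalisation the median was 0.01 in the labelled knockout, with 33 genes lower, and -0.01 in the wild type, with 45 lower. Both pairs were then lower for 27% of the genes in the labelled knockout (background 28.4%) and 30.3% in the wild type (background 36.1%). After cyclic loess the medians were 0.01 and 0.04, and after normexp background correction -0.09 and 0.01, so the sign turned in the labelled knockout under both rank- and curve-based scalings and in the wild type under cyclic loess and normexp. The other genes with a mean level above 7, 228 in number, shifted alike: their median was -0.13 in the labelled knockout and -0.10 in the wild type at the 75th percentile, and -0.02 and -0.01 after quantile normalisation. Of these bright genes, 86% and 82% were lower after OHT at the 75th percentile, and 57.5% and 52.6% after quantile normalisation.

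**Figure D2:**
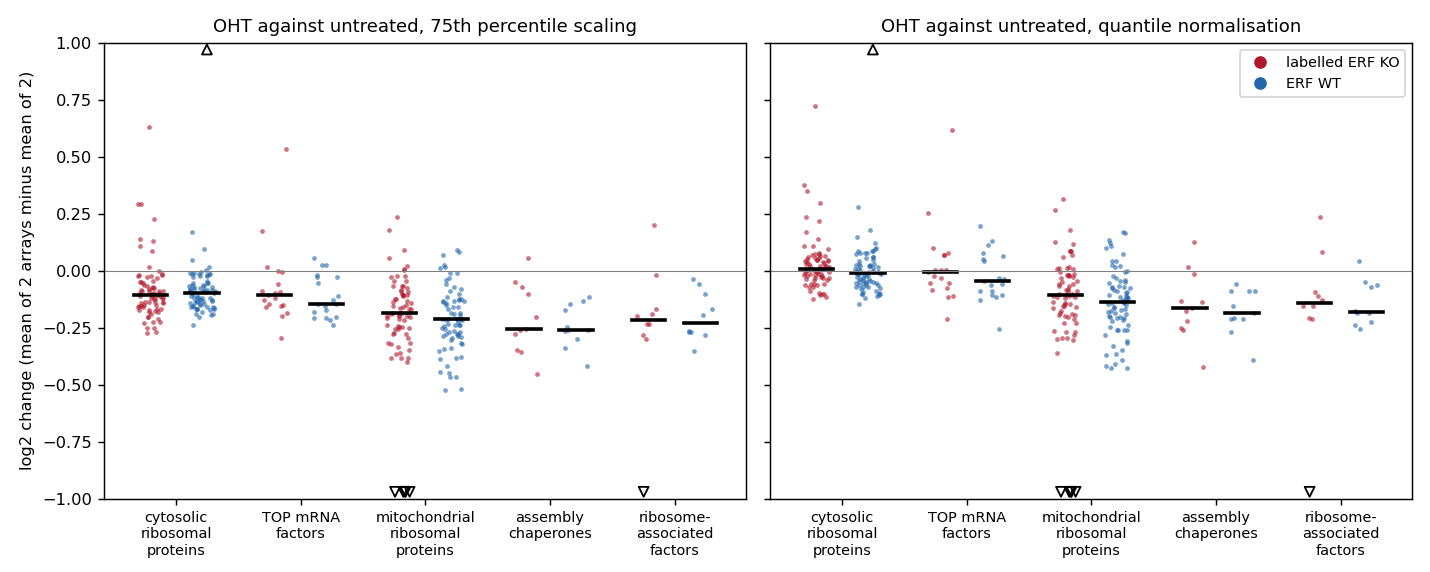
Log2 change after OHT (mean of 2 arrays with OHT minus mean of 2 untreated) of each gene of 5 lists, red in the labelled ERF knockout and blue in the wild type, after 75th percentile scaling (left) and quantile normalisation (right); black bars are medians, and triangles mark values past 1. The cytosolic ribosomal protein medians are -0.11 and -0.10 on the left and 0.01 and -0.01 on the right, while those of the mitochondrial ribosomal proteins are -0.19 and -0.21 on the left and -0.11 and -0.14 on the right.

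Rplp0, Rplp1 and Rplp2 encode the acidic stalk that recruits translation factors, and Rpsa encodes a small subunit protein also known as a laminin receptor. Rplp2 read 8.93 (A2) and 9.01 (B2) after OHT and 9.11 and 9.34 untreated in the labelled knockout, against 8.85 (A1) and 8.78 (B1) after OHT and 8.93 and 8.83 untreated in the wild type. Both labelled knockout arrays with OHT lay below both untreated ones, and untreated the labelled knockout arrays lay above the wild type ones. Its change after OHT was -0.25 ± 0.17 (SE, 2 arrays a group) in the labelled knockout and -0.06 ± 0.17 in the wild type. Without OHT it was 0.34 ± 0.17 higher in the labelled knockout than in the wild type, the smallest p of the set there (limma p 0.0930, adjusted p 1.00).

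Rplp0 read 8.76 and 8.84 after OHT and 8.88 and 9.08 untreated in pools A2 and B2, against 8.74 and 8.35 after OHT and 8.89 and 8.54 untreated in A1 and B1. Rplp1 read 8.79 and 8.85 after OHT and 8.92 and 9.03 untreated in A2 and B2, against 8.73 and 8.78 after OHT and 8.89 and 8.85 untreated in A1 and B1. Rpsa read 8.67 and 8.43 after OHT and 8.62 and 8.53 untreated in A2 and B2, against 8.39 and 8.26 after OHT and 8.55 and 8.42 untreated in A1 and B1. For Rplp0 and Rplp1 the OHT arrays lay below the untreated ones in the labelled knockout, whereas those of Rpsa straddled them. In the wild type the OHT and untreated arrays of Rplp1 and Rpsa did not overlap, and those of Rplp0 did.

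Among large subunit genes outside the stalk, the smallest p values for lower levels after OHT were those of Rpl10a, a protein of the L1 stalk that moves tRNA out of the ribosome, in the labelled knockout, and of Rpl17 and Rpl6 in the wild type. Rpl10a read 8.58 and 8.88 after OHT and 8.85 and 9.15 untreated in A2 and B2, against 8.78 and 8.80 after OHT and 8.85 and 8.84 untreated in A1 and B1. The change was close to equal in the labelled knockout pools (-0.27 and -0.26), but the pools lay apart, so the OHT and untreated arrays there overlapped. Rpl17, near the exit tunnel, read 7.60 and 7.79 after OHT and 7.62 and 7.80 untreated in A2 and B2, against 7.65 and 7.46 after OHT and 7.87 and 7.66 untreated in A1 and B1. Rpl6 read 8.36 and 8.48 after OHT and 8.34 and 8.60 untreated in A2 and B2, against 8.28 and 8.26 after OHT and 8.60 and 8.33 untreated in A1 and B1. The OHT arrays of Rpl17 and Rpl6 were lower than both untreated arrays in the wild type, with Rpl17 close to a tie, and overlapped with them in the labelled knockout.

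Small subunit genes gave Rps14 in the labelled knockout and Rps7 in the wild type, both mutated or lost in human ribosome disorders. Rps14 read 8.86 and 8.93 after OHT and 9.04 and 9.30 untreated in A2 and B2, against 8.88 and 8.72 after OHT and 9.04 and 8.76 untreated in A1 and B1, a change of -0.28 ± 0.19 and -0.10 ± 0.19 (SE). Rps7 read 6.93 and 7.30 after OHT and 7.04 and 7.36 untreated in A2 and B2, against 7.07 and 6.93 after OHT and 7.34 and 7.14 untreated in A1 and B1, a change of -0.09 ± 0.22 and -0.24 ± 0.22. The groups of Rps14 did not overlap in the labelled knockout, nor those of Rps7 in the wild type.

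A few genes stood above the rest after OHT. Rps24, whose transcripts end in alternative short coding exons, read 7.82 and 7.81 after OHT and 7.36 and 7.69 untreated in A2 and B2, against 7.96 and 7.59 after OHT and 7.85 and 7.36 untreated in A1 and B1. Rpl13a, a large subunit protein that also takes part in translational silencing in human myeloid cells, read 7.70 and 7.78 after OHT and 7.49 and 7.52 untreated in A2 and B2, against 7.63 and 7.24 after OHT and 7.76 and 7.02 untreated in A1 and B1. In the labelled knockout the OHT arrays of both lay above the untreated ones, by 0.29 ± 0.25 and 0.23 ± 0.29 (SE), and in the wild type the groups overlapped, with 0.17 ± 0.25 and 0.05 ± 0.29. Rps21, with 0.63 ± 0.61 in the labelled knockout and 0.09 ± 0.61 in the wild type, was the third, and its values are given with the genotypes. The probes of Rpl13a disagreed: its other 2 probes changed by -0.29 and -0.28 in the labelled knockout and -0.18 and -0.25 in the wild type. Of the other probes of Rps24, 1 changed by 0.15 and -0.18, and the third by 0.14 in the labelled knockout, with a low spot on the untreated A1 array that leaves no change for the wild type.

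Over the 51 genes with several probes that could be compared, all probes of a gene were lower after OHT for 32 in the labelled knockout and 40 in the wild type, all were higher for 2 and 0, and signs were mixed for 17 and 11.

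OHT and untreated cells came from 1 pool each time, so the pool can serve as a block. With that block, spots in small dark patches left out and a trended robust variance, limma passed 34 genes of the set as lower in the labelled knockout (44.7%; background 9.89% lower and 4.51% higher) and 2 in the wild type (2.63%; background 9.86% lower and 7.79% higher). With the pool as a block alone, or as a random block (estimated correlation 0.803), 0 genes of the set passed in either genotype. The patch limit was chosen after seeing the data, and leaving the patches out also moved the 75th percentile: the set's median in the labelled knockout was then -0.18 (-0.11 with the patches kept) and that of all genes -0.04 (0.02 with them kept). With larger patches, as planned, 28 genes passed as lower in the labelled knockout (36.8%; background 8.25% lower and 3.93% higher) and the same number as before, 2, in the wild type (2.63%; background 9.59% lower and 7.13% higher). The 34 were 21 large and 13 small subunit genes, with log2 changes from -0.35 to -0.17. Rpl10a fell by 0.34 (adjusted p 0.00640), Rplp2 by 0.32 (0.00729), Rps14 by 0.35 (0.00822) and Rps20, a protein of the small subunit head, by 0.30 (0.00852). Rplp0 fell by 0.25 (adjusted p 0.0165) and Rplp1 by 0.22 (0.0206), while Rpsa changed by -0.09 (0.239). The 2 in the wild type were Rps7, which fell by 0.22 (adjusted p 0.0323 with limma), and Rpl17, by 0.19 (0.0404).

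With quantile normalisation in the same paired fit, 0 genes of the set passed as lower in either genotype (background 5.13% in the labelled knockout and 7.97% in the wild type), and Rpl10a, Rplp2 and Rps14 changed by -0.11, -0.11 and -0.13. In the labelled knockout 2 genes then passed as higher (2.63%; background 5.08%), Rps24 by 0.25 (limma adjusted p 0.0320) and Rpl13a by 0.28 (0.0491), and in the wild type Rps24 alone (1.32%; background 9.83%), by 0.35 (0.0201). In this fit Rps24 was read from another probe, the one with the low spot, and the untreated A1 array was dropped, so the wild type value rests on pool B1. With cyclic loess Rps24 and Rpl13a passed as higher in the labelled knockout (background 5.32% higher and 4.68% lower) and Rps24 in the wild type (background 10.2% higher and 7.77% lower), and 0 as lower in either. The difference between the OHT effects of the genotypes was tested gene by gene. It passed for 0 genes of the set under every scaling of the paired fit (background 0%). The larger count in the labelled knockout is thus not backed by a difference between genotypes that passed.

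For the difference of the OHT effects on the group means, labelled knockout minus wild type, 34 of the 76 values lay above 0 and 42 below, with a median of -0.0044 against 0.05 for all genes. Among the smallest p values above 0 were those of Rpl17 (0.19 ± 0.27, SE) and Rpl4 (0.45 ± 0.69), and the smallest below 0 were those of Rpl19 (-3.30 ± 2.72), Rplp2 (-0.19 ± 0.24) and Rpl10a (-0.21 ± 0.28).

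The Rpl19 value comes from 1 spot. Rpl19, a large subunit protein with a long tail at the bridge between subunits, read 8.25 and 8.22 after OHT and 8.30 and 8.41 untreated in A2 and B2, against 8.24 and 8.33 after OHT and 1.85 and 8.37 untreated in A1 and B1. On the untreated A1 array its spot was 87.7-fold below the median of the other arrays, and the spots around it on the slide had a median deviation of -5.77. With spots in such small patches left out, Rpl19 changed by -0.19 in the labelled knockout and -0.08 in the wild type, where 3 arrays remained.

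Low spots of this kind were counted over the 172 spots of the set on each array: 29 lay at least 2-fold below the median of the other arrays. On slide 1 there were 15, of which 12 lay in small patches where neighbouring spots were low too, and 10 were on the 2 arrays of the labelled knockout with OHT. On these arrays 3.04 and 1.4% of all spots lay in small patches, against 0.1 and 0.25% on the untreated labelled knockout arrays and at most 0.73% on wild type arrays. A probe of Rplp0 read 3.15 on the A2 array with OHT, against 8.14 to 8.68 on the other arrays, and a probe of Rps6, the protein that S6 kinases phosphorylate, read -3.97 there, against 2.79 to 3.10. Other probes of these genes did not share the drop. The scanner's own flags took out 4 of the 15 spots, among them the only named probe of Rpl37a on the A2 array with OHT, where neighbours were low too (-3.67), and that of Rpl18 on the B2 array with OHT.

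**Figure D3:**
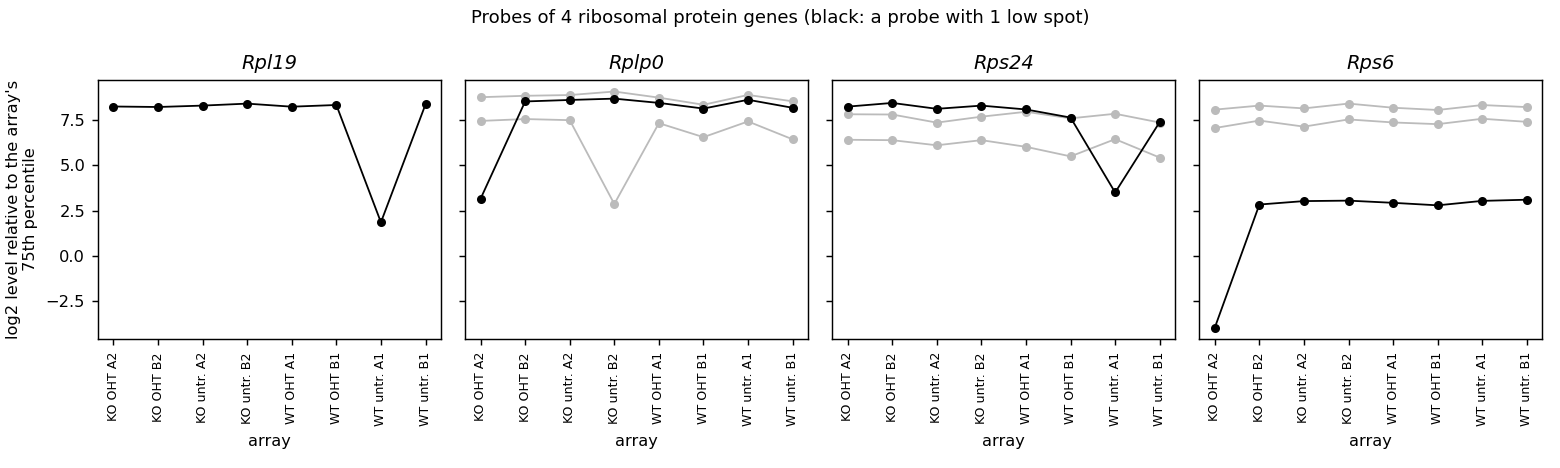
Log2 level of each probe of Rpl19, Rplp0, Rps24 and Rps6 on the 8 arrays (labelled ERF knockout with OHT and untreated, then wild type with OHT and untreated), with a probe that has 1 low spot in black and the other probes of the gene in grey. Single spots fall far below the other arrays, as for Rpl19 on the untreated A1 array (1.85), and a grey Rplp0 probe is also low on the untreated B2 array.

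Between genotypes, 61 of the 76 genes were higher in the labelled knockout with OHT, and 61 untreated. The median difference was 0.11 with OHT (0.03 for all genes) and 0.10 untreated (-0.02 for all genes). Both labelled knockout arrays lay above both wild type arrays for 30 of 74 genes with OHT (40.5%; background 15.5%) and 17 of 76 untreated (22.4%; background 9.22%). The pools differed: B2 minus B1 was 0.21 with OHT and 0.30 untreated, whereas A2 minus A1, both on slide 1, was -0.01 and -0.11. With slide as a block the medians were 0.04 and 0.04, and after quantile normalisation 0.00 and -0.03. With small dark patches left out they were 0.04 with OHT and 0.11 untreated. Both labelled knockout arrays then lay above both wild type arrays for 6 of 74 genes with OHT (8.11%, background 10.8%). Untreated, this held for 22 of 74 (29.7%, background 9.58%). The excess over background with OHT was thus not seen at that setting, while the untreated excess was. After quantile normalisation the untreated labelled knockout arrays lay above both wild type arrays for 13 of 76 genes (17.1%, background 10.9%). They lay below both for 25 (32.9%, background 11.3%). After cyclic loess these counts were 20 (26.3%, background 11.2%) and 6 (7.89%, background 11%). Which way the untreated excess ran thus depended on the scaling.

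Rpl4, which reaches into the exit tunnel, read 6.34 (A2) and 6.56 (B2) with OHT in the labelled knockout, against 6.05 (A1) and 5.30 (B1) in the wild type, and untreated 6.02 and 6.29 in the labelled knockout, against 6.51 and 5.16 in the wild type. Rpl7a, a large subunit protein, read 7.16 and 7.49 with OHT in the labelled knockout, against 7.11 and 6.54 in the wild type, and untreated 7.54 and 7.35 in the labelled knockout, against 7.21 and 6.46 in the wild type. Rps21 read 5.42 and 5.33 with OHT in the labelled knockout, against 4.87 and 4.11 in the wild type, and untreated 4.56 and 4.93 in the labelled knockout, against 5.30 and 3.49 in the wild type. All 3 genes were lowest on the arrays of pool B1, and the difference was 0.78 ± 0.49, 0.50 ± 0.34 and 0.88 ± 0.61 (SE) with OHT. Rps20 read 8.75 and 8.83 with OHT in the labelled knockout, against 8.81 and 8.43 in the wild type, and untreated 8.95 and 9.09 in the labelled knockout, against 8.82 and 8.48 in the wild type, again lowest in B1.

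Lower values in the labelled knockout were small. Rpl28 differed by -0.13 ± 0.24 (SE) with OHT and -0.18 ± 0.24 untreated: it read 7.005 and 7.39 with OHT in A2 and B2, against 7.35 and 7.31 in A1 and B1, and untreated 7.08 and 7.55 in the labelled knockout, against 7.52 and 7.48 in the wild type. Rps18 read 7.53 and 7.86 with OHT in A2 and B2, against 7.70 and 7.77 in A1 and B1, and untreated 7.52 and 7.98 in the labelled knockout, against 7.94 and 7.89 in the wild type. In Rpl28 and Rps18 only pool A2 was low, and B2 was as high as the wild type or higher. Rpl3, which borders the peptidyl transferase centre, read 8.30 and 8.56 with OHT in A2 and B2, against 8.38 and 8.53 in A1 and B1, and untreated 8.37 and 8.65 in the labelled knockout, against 8.60 and 8.66 in the wild type. Rps9, a protein of the mRNA entry region, read 8.54 and 8.70 with OHT in A2 and B2, against 8.67 and 8.83 in A1 and B1, and untreated 8.66 and 8.88 in the labelled knockout, against 8.71 and 8.82 in the wild type. Rpl18 read 8.05 with OHT in A2, with no value in B2, against 8.16 and 8.25 in A1 and B1, and untreated 8.13 and 8.47 in the labelled knockout, against 8.34 and 8.33 in the wild type. The differences were -0.12 ± 0.19 for Rpl3 untreated, and -0.13 ± 0.18 for Rps9 and -0.16 ± 0.25 for Rpl18 with OHT, each smaller than its SE.

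Rps21, Rpl4, Rpl7a and Rps3 varied most over the arrays after Rpl19, with SDs of 0.67, 0.53, 0.40 and 0.38. Rps3, at the mRNA entry channel, read 6.85 and 7.24 with OHT and 6.79 and 7.03 untreated in A2 and B2, against 6.85 and 6.20 with OHT and 7.05 and 6.23 untreated in A1 and B1. In all of them pool B1 was low with and without OHT, so it was examined probe by probe. Of the 160 probes of the set well above background on all arrays, 20 (12.5%) were lower in B1 than in A1 by over 0.5 both with and without OHT, and 1 (0.625%) was higher by as much. Among all 27393 such spots, 9.21% were lower and 8.09% higher.

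The 20 probes belong to 15 genes. In 13 of these genes, which have several probes, some probes were lower by this much and others were not. In the other 2, Rpl4 and Rps21, there was 1 probe to read. The 2 probes of Rps3 differed by -0.65 and -0.05 (B1 minus A1) with OHT and -0.82 and 0.12 untreated. Those of Rps3a1 differed by -0.72 and 0.05 with OHT and -1.02 and -0.09 untreated, and those of Rpl13 by -0.83, -0.0031 and -0.03 with OHT and -1.48, -0.12 and -0.11 untreated. Those of Rpl7 were all low and straddled the limit, at -0.54 to -0.44 with OHT and -0.89 to -0.57 untreated. Probes of 1 gene thus gave unlike values in B1 for Rps3, Rps3a1 and Rpl13, but not for every gene counted as split. Slide 2 held no other pool, so pool and slide cannot be told apart here.

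**Figure D4:**
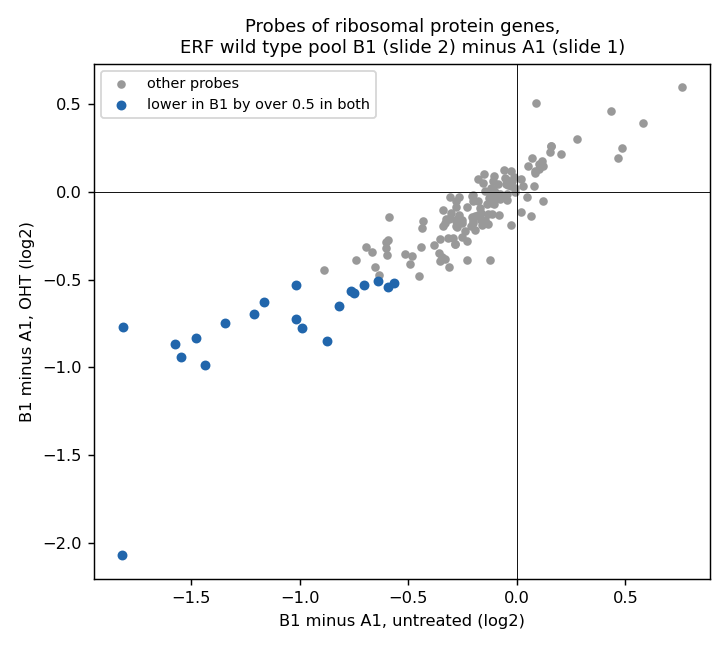
Each of 158 probes of the set is drawn by its log2 level in pool B1 minus A1, untreated on the horizontal axis and with OHT on the vertical axis; 2 probes, whose untreated A1 spot lay in a patch, fall off the axis. The 20 probes lower in B1 by over 0.5 in both (blue) form a tail to the lower left.

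Genes with the CCGGAAG motif in the promoter window and those without it had close median changes after OHT. With OHT the median change was -0.09 (22 genes with the motif) and -0.13 (34 without) in the labelled knockout, and -0.12 and -0.08 in the wild type. After quantile normalisation the medians were 0.02 and -0.01 in the labelled knockout, with 6 of 22 and 19 of 34 genes below 0. They were -0.02 and -0.01 in the wild type, with 13 of 22 and 18 of 34 below 0. Between genotypes the untreated medians were 0.07 with the motif and 0.11 without it, and those with OHT 0.09 and 0.13. After quantile normalisation they were -0.07 (15 of 22 below 0) and 0.03 (15 of 34) untreated. With OHT they were then -0.01 (11 of 22) and 0.02 (14 of 34). Whether genes with and without the motif differ was not tested.

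Other genes of the ribosome's parts and helpers were described from lists. Genes of the mitochondrial ribosome, which makes the proteins encoded by mitochondrial DNA, were lower after OHT for 67 of 74 in the labelled knockout (median -0.19) and 68 of 74 in the wild type (median -0.21), and their medians stayed below 0 after quantile normalisation (-0.11 and -0.14) and cyclic loess (-0.14 and -0.13). In the paired fit 29 passed as lower in the labelled knockout (background 9.89%) and 23 in the wild type (background 9.86%), with 0 higher. Mrpl32 changed by -0.45 ± 0.16 (SE) and Mrps34 by -0.47 ± 0.17 in wild type cells (adjusted p 0.776 and 0.780, limma on the group means), and Mrps7 by -0.32 ± 0.16 in the labelled knockout. The smallest p in the labelled knockout was that of Mrps27, at -3.79, which became -0.78 with small patches left out.

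Chaperones that carry or place ribosomal proteins were lower after OHT for 10 of 11 in the labelled knockout (median -0.25) and all 11 in the wild type (median -0.26), and after quantile normalisation the medians were -0.16 and -0.19. In the paired fit 7 and 3 passed as lower (background 9.89% and 9.86%). Pdcd2, which accompanies Rps2, fell in that fit by 0.42 in the labelled knockout (limma adjusted p 0.0117) and by 0.33 in wild type cells (0.0182). Grwd1, the chaperone of Rpl3, fell by 0.60 in the labelled knockout (adjusted p 0.0165), where the B2 array with OHT gave no value, and Rps19bp1 by 0.29 in the wild type (0.0250).

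Factors bound to the ribosome were lower for 9 of 10 in the labelled knockout (median -0.22) and 10 of 10 in the wild type (median -0.23), or -0.14 and -0.18 after quantile normalisation, with 4 and 2 passing as lower in the paired fit (background 9.89% and 9.86%). Eif6, which keeps the subunits apart, fell by 0.35 in the labelled knockout in that fit (limma adjusted p 0.0231) and changed by -0.26 in wild type cells (0.0546). Dnajc2 changed by -0.27 ± 0.20 in the wild type on the group means, and the value of Ltn1 in the labelled knockout, -3.11, became -0.12 with small patches left out.

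Translation factors and other genes whose mRNAs also carry a TOP motif had medians of the same order: -0.11 in the labelled knockout (15 of 19 lower) and -0.15 in the wild type (16 lower) at the 75th percentile, and -0.01 and -0.04 after quantile normalisation. In the paired fit 7 passed as lower and 1 as higher in the labelled knockout (background 9.89% and 4.51%), and 0 in the wild type. Elongation factor gene Eef1d fell by 0.36 (limma adjusted p 0.00684) and Eif3e by 0.27 (0.0452), while the intermediate filament gene Vim was 0.46 higher (0.00852). In the wild type Eef1b2 and Eif3a changed by -0.21 ± 0.17 and -0.21 ± 0.19 (SE) on the group means.

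Fau, which encodes a ribosomal protein fused to a ubiquitin-like part, fell by 0.25 in the labelled knockout in the paired fit (limma adjusted p 0.0167) and changed by -0.05 in the wild type (0.550). Among the paralogs, genes for variant ribosomal proteins, 6 of 8 were lower in either genotype, with medians of -0.07 and -0.16. Rpl22l1, the paralog of Rpl22, fell by 0.42 in the labelled knockout (adjusted p 0.0310) and changed by -0.32 in the wild type (0.0598), and Rpl36al changed by -0.26 ± 0.21 (SE) in the wild type on the group means. The value of Rpl39l in the labelled knockout, -4.16, became -0.28 with small patches left out.

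Myc read 1.77 and 1.51 after OHT and 2.63 and 3.03 untreated in A2 and B2, against 0.50 and 0.40 after OHT and 2.47 and 3.18 untreated in A1 and B1. It was lower after OHT in all 4 pools, with paired changes of -1.27 in the labelled knockout (limma adjusted p 0.0299) and -2.36 in the wild type (0.00372), and the difference of these changes did not pass (adjusted p 0.488). Beside it, the median change of the 76 ribosomal protein genes in the same fit was -0.18 in the labelled knockout and -0.08 in the wild type, or -0.0012 and -0.0087 with quantile normalisation.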

How the data were processed

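Cy3-labelled cRNA from total RNA of 8 mouse ES cell samples went onto 8 arrays. The deposited scanner files hold spot intensity, background-subtracted and detrended per the file headers, which name Agilent's Feature Extraction software (11.5.1.1), and not scaled between arrays. Per the file headers, other columns used are 0 or 1 flags. The authors' normalisation: not given in the sources used here. Control spots and outlier-flagged spots were left out, spots of a probe averaged, and log2 intensity minus the 75th percentile of the array taken. Probes were named through a RefSeq table (GRCm38.p6, names only): 28026 of 55681 matched 21154 genes. Its brightest probe stood for a gene, kept where both arrays of any group put it well above background, which left 15182.

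Tests used limma (3.58.1, R 4.3.3) on 4 group means (4 residual degrees of freedom), Benjamini-Hochberg over all genes, threshold 0.05, two-sided. The group-mean fit for OHT in the wild type was tried on simulated arrays with independent noise. The paired fits were not tried on simulated data. The design text calls replicates biological, but they are pools of clones. On the group means, p-values thus measure the spread between pools. With the pool as a fixed block, they rest on how far the OHT change differs between pools of the same genotype. Pairing comes from the source names. Deviations of same-pool arrays correlated at 0.443 in the labelled knockout and 0.658 in the wild type. Across genotypes, where no pool is shared, the correlation was 0.314 with OHT and 0.474 untreated. These values thus do not set the labelled knockout pairs apart from arrays that share no pool. The paired fit leaves 2 residual degrees of freedom. A small dark patch is a spot whose measured neighbours in a 5 by 5 window have a median deviation under -1. Genotype comparisons cannot take the pool as a fixed block.

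The members and lists were chosen with earlier results of these data known. Named were the stalk genes and Rpsa, the 3 smallest p each way per comparison, the 3 most variable genes, and the 2 smallest p of each list per OHT comparison; other genes, such as those named from paired fits or for low spots, were chosen after their values were seen. Results of a few genes that this rule names are not reported here. Figures used Python 3.11.15 and matplotlib 3.10.9.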

Additional observations from a re-analysis of the deposited data

How the results depend on the processing

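On the group means, 0 genes of the set passed in any comparison with any other background correction, scaling, filter, probe rule, slide setting or variance tried. Counts changed with the pool as a block. With dark patches left out and trended robust variance, 28 passed in the labelled knockout and 2 in the wild type. With small patches left out instead, chosen after seeing the data like the next fits, 34 and 2 passed, with quantile normalisation 2 and 1, and with cyclic loess 2 and 1. The block on the replicate number, on the pool alone or on the pool as a random effect passed 0. Over all genes, the group means passed 0 as reported and, in wild type cells, 4 with the filter set on all 8 arrays, 3 with trended robust variance and 14 with array weights. The random block passed 119 in the labelled knockout and 1034 in wild type cells, and the paired fits 1518 to 2186 and 2538 to 2721. The median change in the wild type was 0.044 with cyclic loess, and 0.045 in the paired fit with it. The median difference between genotypes without OHT was -0.027 after quantile normalisation.

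Leaving out 1 array at a time gave 0 to 1 passing genes for OHT in the wild type, the difference of OHT effects and the untreated genotypes; the 1 was Rpl19, whose low spot is in the untreated A1 array, when untreated B1 was left out. The median ran from -0.23 to 0.01 for OHT in the labelled knockout, -0.18 to -0.01 in the wild type, -0.11 to 0.11 for the difference, and, between genotypes, 0.05 to 0.18 with OHT and 0.00 to 0.21 untreated. Single genes turned sign as well: Rps24 in the wild type ran from -0.072 to 0.41, Rpl13a from -0.32 to 0.42, Rpl19 from -0.079 to 6.43, Rpl4 in the difference from -0.22 to 1.13, Rpl28 between genotypes from -0.32 to 0.063 with OHT and -0.42 to 0.055 untreated, Rps18 from -0.40 to 0.062 and Rpl3 from -0.26 to 0.019 untreated. As the mean of its probes Rpl13a changed by -0.12 in the labelled knockout and -0.13 in wild type cells, and by -0.13 in the wild type on slide 1 alone. Rpl19 in the wild type was -0.079 with small patches left out and -0.032 with the pool block too. The causes were not tested, beyond the low spot of Rpl19. On slide 2 alone the wild type median was -0.06.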

Other observations

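Rpl39l, a paralog of Rpl39 best known from the testis, separated the A pools from the B pools in both genotypes. It read 4.49 with OHT and 4.67 untreated in A2, and 4.56 and 4.67 in A1, against 2.34 with OHT and 2.64 untreated in B1 and 1.73 untreated in B2. The B2 array with OHT read -6.41, from a spot in a dark patch. A2 and B2 share slide 1. Rpl10l, another testis paralog, read 5.39 to 6.30 on the 8 arrays and showed no such split. The paralog Rpl3l did separate the pools, with the A pools lower. It read -3.63 with OHT and -3.59 untreated in A2, and -2.71 and -2.70 in A1. In B2 it read -1.27 with OHT and -1.52 untreated, and in B1 -1.22 and -1.50.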
